A study of Mus musculus with 24 samples.

Results

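The transcriptome described here is that of vehicle-treated ID8 cells, taken from the 6 DMSO libraries of a series of 24. ID8 P53 KO is a mouse ovarian cancer line of C57BL/6 origin in which Trp53 was knocked out. Cells were kept for 6 days in DMSO, the control condition of the series. The other 18 libraries, 6 each for AU15330, which degrades SMARCA4 and SMARCA2, for cisplatin and for the combination, were not analysed here. All cells grew in high-glucose DMEM with serum and an insulin-transferrin-selenium supplement, so these are levels in culture and not in a tumor. Members were taken by the DMSO label alone, and no group was compared with another. The labels number the replicates 1 to 6 and do not say whether they were separate cultures, so each spread given is that between 6 samples of 1 line, which may be technical.

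Ovarian surface epithelium, the layer from which ID8 was derived, is a form of mesothelium that lines the body cavity. It makes simple-epithelium keratins together with the mesenchymal intermediate filament vimentin, and it carries the transcription factors WT1 and GATA4 of the embryonic gonad. Carcinoma cells also signal to immune cells through chemokines, cytokines and surface ligands. They respond to such signals through receptors that are often built from several chains. Poly(A)-selected RNA was read as counts per gene. To compare genes with each other, counts were divided by exon length and scaled to the same total in each library (TPM), and a gene was taken as expressed at a mean of at least 1 TPM. A value is given as the mean ± SD over the 6 libraries, or as their lowest, median and highest.

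Between 17592588 and 23096222 reads per library were assigned to genes, with 127171841 in all. A gene at 0 in every library could have made up to 3 counts of that total, or 0.0236 CPM, the counts scaled to library size alone. These limits cover counting error only. Over expressed genes, the Spearman correlation between libraries ranged from 0.963 to 0.995, and edgeR's common biological coefficient of variation was 19.8%. The library of replicate 1 stood apart. The row of the 45S ribosomal RNA precursor, Rn45s, took 1.70% of its counts, against 0.271% to 0.438% in the other 5. Its correlations with the other libraries ran from 0.963 to 0.982, and those among the other 5 from 0.973 to 0.995. Without replicate 1, the number of expressed genes was 11727 and the biological coefficient of variation 18.1%.

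Of 24681 genes with an annotated length, 11724 (47.5%) were expressed. Another 5051 had reads but a mean under 1 TPM, and 7906 (32.0%) had 0 counts in all libraries. Transcripts were unevenly divided: 99 genes at 1000 TPM or more held 21% of all TPM, and the 2107 genes between 100 and 1000 TPM held 50.3%. Single libraries had 11603 to 11810 genes at 1 TPM or more, and 11100 genes reached it in all 6. Among reads, the 100 highest genes took 15.5% ± 1.5 (SD, n = 6), and 1012 to 1198 genes were needed to reach 50% of a library. Of 2204 genes of long noncoding type, 374 (17%) were expressed.

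The 25 highest genes included genes of protein synthesis, the cytoskeleton and iron handling. Eef1a1, which brings aminoacyl-tRNA to the ribosome, ran from 6266 to 7552 TPM (median 6895), and beta-actin (Actb) from 5300 to 7111 TPM (median 6255). The chaperone gene Hsp90ab1 had 5670 ± 659 TPM, elongation factor Eef2 4739 ± 611 TPM and the actin-sequestering thymosin Tmsb4x 4293 ± 1047 TPM. Iron was served by transferrin (Trf, 5303 ± 1489 TPM) and by the ferritin chains Ftl1 (5040 ± 852 TPM) and Fth1 (3522 ± 486 TPM), while the transferrin receptor Tfrc had 149 ± 60.4 TPM. Trf therefore stood among the 10 highest genes of a cell whose medium already held transferrin. Of the 25 highest genes, 5 encode cytosolic ribosomal proteins, with Rplp1 (5156 ± 449 TPM), Rpl4 (3251 ± 342 TPM) and Rps15 (2900 ± 486 TPM) as the leading ones, then Rplp0 and Rpl8. All measured cytosolic ribosomal protein genes together, 83 of which 74 were expressed, made 5.35% to 7.14% of all TPM. Reads of these genes can also fall on their many processed pseudogenes, so single values are uncertain.

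Of secreted products, osteopontin (Spp1), a secreted integrin ligand, had 3511 to 5240 TPM (median 4195). The galactoside-binding lectin Lgals1 had 3747 ± 632 TPM, the chaperone clusterin (Clu) 2447 ± 325 TPM and the binding protein Igfbp7 2433 ± 494 TPM. Below the 25 highest genes, Igfbp4 had 2073 ± 297 TPM and Igfbp6 1555 ± 558 TPM, while Igfbp1 and Igfbp2 had 0 counts, so 3 of the 7 genes that encode insulin-like growth factor binding proteins were expressed. Igfbp6 was uneven, with 912 and 766 TPM in replicates 2 and 3 and 1857 to 1996 TPM in the other 4. The remaining genes among the 25 were Bsg, Aldoa, Krt19, Jund (2976 ± 394 TPM), Txnip (2797 ± 1087 TPM), Scd2 (2452 ± 475 TPM), S100a11 (2416 ± 603 TPM) and Mir6236. Jund encodes a subunit of AP-1, Txnip a regulator of glucose uptake, Scd2 a fatty acid desaturase and S100a11 a calcium-binding protein.

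**Figure D1:**
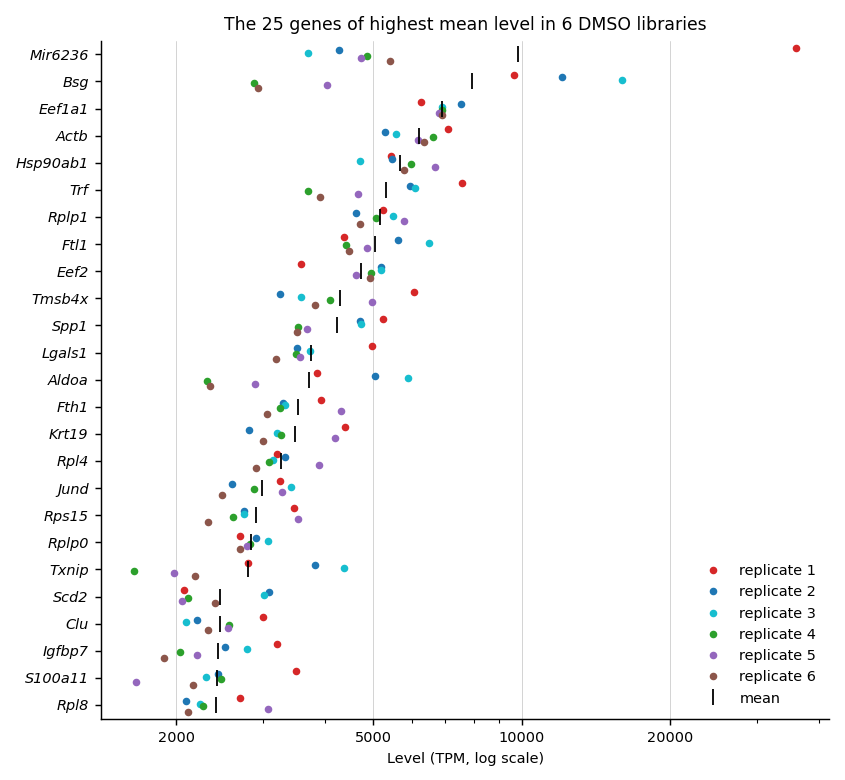
Level of the 25 highest genes in TPM on a log scale, with 1 point for each of the 6 DMSO libraries and a black bar at the mean. Mir6236 reaches 36003 TPM in replicate 1 and stays between 3694 and 5414 TPM in the others, and Bsg lies at 2870 to 4032 TPM in replicates 4 to 6 and at 9655 to 15975 TPM in replicates 1 to 3.

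Neighbours in the top 25 were not separated by their ranges, though genes farther apart could be. The range of each gene overlapped that of the gene ranked next in 25 of 25 neighbouring pairs. The first rank was held by Mir6236, a small RNA gene of 123 bases at chr9:110281287-110281409, and rested on replicate 1. It had 36003 TPM there and 3694 to 5414 TPM in the other 5, and a gene shorter than a few reads has no reliable level per length. Leaving out that replicate kept 23 of the 25 genes. Basigin (Bsg), a membrane glycoprotein and partner of lactate transporters, came second with 7926 ± 5493 TPM. Its level was 9655, 12098 and 15975 TPM in replicates 1 to 3 and 2870, 4032 and 2928 TPM in replicates 4 to 6. The glycolytic gene Aldoa was also higher in each of replicates 1 to 3 than in any of replicates 4 to 6. Its range was narrower, from 2301 to 5874 TPM (median 3369). The 15 genes of glycolytic enzymes, all expressed, made 0.845% to 1.02% of TPM in replicates 4 to 6 and 1.54% to 2.23% in replicates 1 to 3. What sets these libraries apart is not given by the labels and was not tested.

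Base composition at the start sites differed between genes at different levels. Promoter windows from 250 bases before to 50 after the annotated start were found in RefSeq (GRCm38.p6) for 18376 genes of the table. The number of CG dinucleotides in the window had a median of 3 for genes with 0 counts, 7 under 1 TPM, 17 from 1 to 10 TPM, 22 from 10 to 100 TPM and 23 at 100 TPM or more. Windows with at least 10 of them made 19.9% of the first class and 90.1% of the last, against 56.7% of all. The letters TATA, which read the same on both strands, were found 45 to 16 bases before the start in 12.9% of the genes at 0 counts, 8.54% under 1 TPM, 4.81% from 1 to 10 TPM, 2.36% from 10 to 100 TPM and 4.51% at 100 TPM or more, and in 7.19% of all windows. A match to such letters is a description and does not show a binding site.

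Single genes can depart from the class medians, and 4 windows are shown for that contrast. The 250 bases before the first listed start are printed 5′ to 3′ on the gene's strand, with each CG in capitals. Spp1 and Amhr2 were strongly expressed from CG-poor windows, Met was expressed from a CG-rich one, and Cdkn2a had 0 counts beside a window with more CG than any of the other 3.
Spp1 (4231 TPM; chr5:104434861-104435110, + strand; 3 CG): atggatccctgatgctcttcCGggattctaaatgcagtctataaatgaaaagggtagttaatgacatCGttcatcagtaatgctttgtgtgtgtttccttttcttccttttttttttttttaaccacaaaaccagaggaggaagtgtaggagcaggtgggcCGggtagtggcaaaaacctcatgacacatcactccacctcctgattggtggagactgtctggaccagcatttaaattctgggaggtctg
Amhr2 (578 TPM; chr15:102445117-102445366, + strand; 5 CG): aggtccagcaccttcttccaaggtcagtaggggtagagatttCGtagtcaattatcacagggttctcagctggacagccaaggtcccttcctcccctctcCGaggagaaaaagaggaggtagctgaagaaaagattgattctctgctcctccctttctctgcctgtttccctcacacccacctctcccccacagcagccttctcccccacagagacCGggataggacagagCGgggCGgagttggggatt
Met (55.9 TPM; chr6:17463707-17463956, + strand; 24 CG): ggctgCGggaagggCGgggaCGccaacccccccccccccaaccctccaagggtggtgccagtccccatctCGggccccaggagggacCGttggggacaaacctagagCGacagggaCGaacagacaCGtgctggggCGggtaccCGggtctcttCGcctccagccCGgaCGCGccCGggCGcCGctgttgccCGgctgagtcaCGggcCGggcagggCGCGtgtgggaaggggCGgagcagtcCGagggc
Cdkn2a (0 counts; chr4:89294620-89294869, − strand; 40 CG): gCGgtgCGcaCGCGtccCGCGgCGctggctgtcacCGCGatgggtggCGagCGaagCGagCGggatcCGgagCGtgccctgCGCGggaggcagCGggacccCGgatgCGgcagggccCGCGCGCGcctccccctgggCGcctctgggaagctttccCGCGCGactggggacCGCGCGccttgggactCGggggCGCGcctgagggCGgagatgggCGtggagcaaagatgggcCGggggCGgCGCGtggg
Spp1 and Cdkn2a each have 2 starts listed, and the other may be the one used. Among genes of the marker, receptor, ligand and immune lists with a window, 49 of 65 at 100 TPM or more held at least 10 CG, as did 49 of 159 with 0 counts.

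Most markers of the mesothelium and ovarian surface epithelium were expressed. Of 17 measured markers of that lineage, 12 (70.6%) were expressed and 8 exceeded 100 TPM, against 47.5% and 8.94% of all genes. Keratin 19 (Krt19) had 2802 to 4387 TPM (median 3223) and the other simple-epithelium keratins Krt18 and Krt8 had 1628 ± 162 and 623 ± 81.6 TPM. Mesothelin (Msln), a surface protein of this tissue, ran from 500 to 722 TPM (median 612). The transcription factor Wt1 had 449 to 572 TPM (median 468), Gata4 468 ± 83.9 TPM and Gata6 128 ± 11.7 TPM. In each of these genes the highest library was less than 2 times the lowest. Podoplanin (Pdpn), a mucin-type membrane protein, had 326 ± 20.5 TPM. The uroplakins Upk1b and Upk3b, mesothelial membrane proteins, were lower and less even: Upk3b had 14.1 and 15.7 TPM in replicates 3 and 2 and 58.0 to 69.2 TPM in the other 4. The pattern was incomplete, since calretinin (Calb2), Aldh1a2 and Tcf21 had 0 counts and Krt7 and Bnc1 stayed at 0.660 and 0.649 TPM.

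Markers of the oviduct, the other tissue from which ovarian carcinoma arises, were mostly lacking. Of 12, Folr1 (112 ± 11.7 TPM), Ovgp1 (5.42 ± 1.54 TPM) and Tppp3 (2.24 ± 1.21 TPM) were expressed. The lineage factor Pax8 had 16 counts in all (0.0813 TPM), Epcam 6 counts, and Sox17 and Emx2 0.

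Genes of the epithelial and mesenchymal programs were each expressed in part. The epithelial share lay below the 47.5% of all genes, and the mesenchymal share lay nearer to it. Of 19 epithelial genes, 5 (26.3%) were expressed, with plakoglobin (Jup, 190 to 254 TPM, median 201), desmoplakin (Dsp, 43.4 ± 11.2 TPM), the splicing factor Esrp2 (35.0 ± 7.62 TPM) and Krt15 (11 ± 8.34 TPM) as the highest. E-cadherin (Cdh1), which joins epithelial cells, had 0.589 TPM, and occludin (Ocln), Cldn7, Krt5, Krt20 and Ovol2 had 0 counts. N-cadherin (Cdh2) had 50.8 ± 8.24 TPM. So of the cadherin pair only the mesenchymal form passed 1 TPM. Of 23 mesenchymal genes, 13 (56.5%) were expressed. Vimentin (Vim) had 1354 to 3035 TPM (median 1886), the matrix glycoprotein Sparc 1289 ± 211 TPM, fibronectin (Fn1) 486 ± 266 TPM and S100a4 292 ± 117 TPM. Fn1 was highest in replicate 2, at 974 TPM, and lowest in replicate 5, at 246 TPM. The repressors Snai2 (92.1 ± 22.4 TPM), Zeb1 (26.0 ± 6.75 TPM), Zeb2 (8.99 ± 3.03 TPM) and Snai1 (8.25 ± 2.43 TPM) were expressed, as was the factor Twist2 (18.1 ± 2.69 TPM), and Twist1 and Lum had 0 counts.

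**Figure D2:**
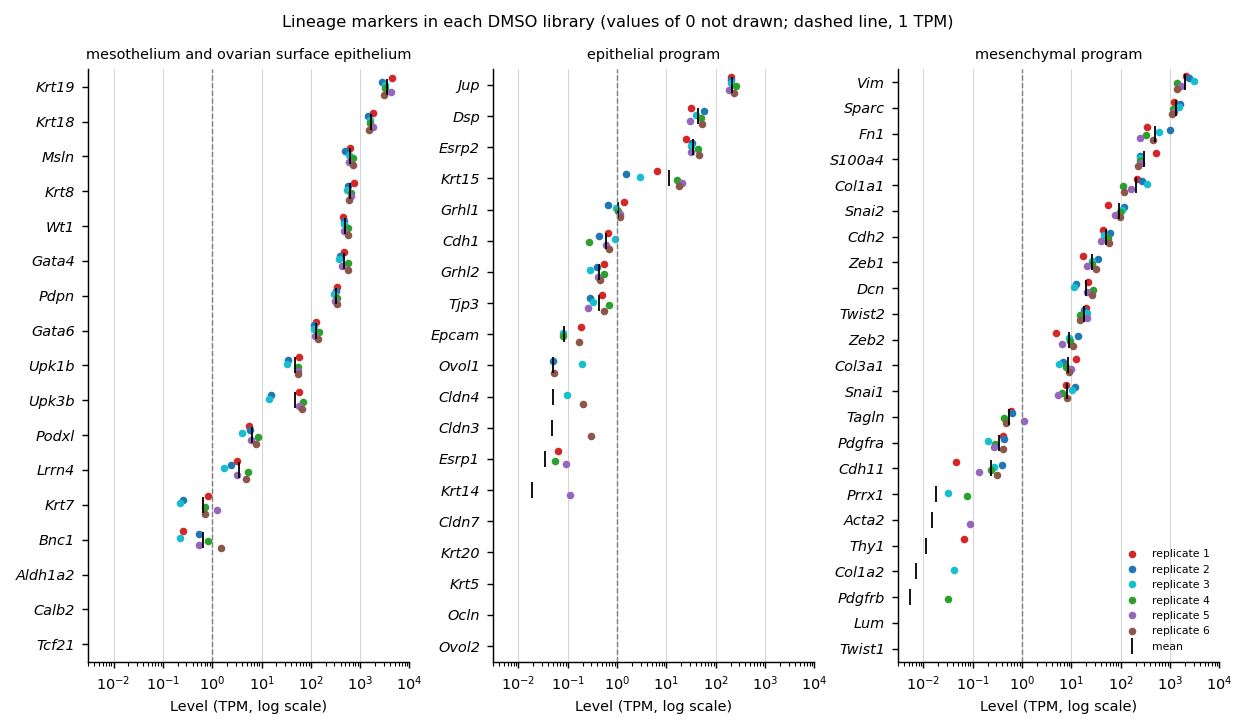
Level in TPM on a log scale of each marker of mesothelium, of the epithelial program and of the mesenchymal program, with 1 point per DMSO library, a black bar at the mean and a dashed line at 1 TPM. Simple keratins, Msln, Wt1 and Vim lie at the right edge, Cdh1 lies just left of the line, and genes without points, such as Calb2, Ocln and Twist1, had 0 counts.

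The other mesenchymal genes were uneven. Collagen I is a trimer of 2 chain types, and here Col1a1 had 109 to 338 TPM (median 185) while Col1a2 had 3 counts in all. Col3a1 had 8.60 ± 2.47 TPM. Pdgfrb, Acta2 and Thy1 had 1 count each, and Pdgfra 0.334 TPM. Of basement membrane collagens, the chains with the highest levels were Col4a5 (250 ± 59.7 TPM), Col4a6 (167 ± 29.1 TPM), Col4a2 (107 ± 30.6 TPM) and Col4a1 (71.0 ± 20.9 TPM), and Col1a1 stood between the first and second of these. In all, 12 of 44 collagen chains were expressed. The gene set of collagens was drawn up after these values had been seen.

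Of 18 genes of the follicle, of steroid synthesis and of germ cells, 4 (22.2%) were expressed and 5 had 0 counts, against 47.5% of all genes expressed. Star, which carries cholesterol into mitochondria, had 407 to 542 TPM (median 496). The nuclear receptor Nr5a1 (SF-1) had 95.7 to 111 TPM (median 99.6), and inhibin alpha (Inha) 79.5 ± 7.85 TPM. Cyp11a1, Cyp17a1 and Cyp19a1, the enzymes downstream, had 0.0845, 0.698 and 0.0144 TPM. Hsd3b1, the gonadotropin receptors Fshr and Lhcgr, the granulosa factor Foxl2 and the oocyte factor Figla had 0 counts. Gdf9, an oocyte growth factor, sat at the threshold with 1.01 ± 0.612 TPM.

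Most markers of leukocytes and endothelium were not expressed. Of 20 leukocyte markers, 2 (10%) were expressed, the lysosomal Cd68 (33.7 ± 15.6 TPM) and the lipopolysaccharide co-receptor Cd14 (17.9 ± 4.14 TPM), which are not confined to leukocytes. The pan-leukocyte gene Ptprc had 6 counts in all, Itgam 2 and Cd3e 3, and 10 markers had 0, among them Adgre1, Tyrobp, Lyz2, Cd4 and Ncr1. Of 10 endothelial markers, Esam (59.0 ± 4.00 TPM) and Pecam1 (2.12 ± 0.412 TPM) were expressed, while Cdh5 and Kdr had 1 count each and Erg, Emcn and Cldn5 none. In bulk RNA, fewer cells of a type and less RNA per cell cannot be told apart. Among 16 genes of other tissues, the liver plasma protein fetuin-A (Ahsg) had 358 to 680 TPM (median 580) and the apolipoprotein Apoa1 39.0 ± 28.3 TPM, while albumin (Alb) had 0.800 TPM. The remaining expressed gene was Snap25 (2.86 ± 0.764 TPM).

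Of sex-linked transcripts, Xist was present and those of the Y chromosome were not. Xist, which silences an X chromosome, had 14.2 to 44.5 TPM (median 22.3), with no library below 14 TPM, and the Y genes Ddx3y, Eif2s3y, Kdm5d and Uty had 0 counts. The X-linked partners Ddx3x (358 ± 67.4 TPM), Kdm5c (133 ± 31.5 TPM), Kdm6a (57.9 ± 17.3 TPM) and Eif2s3x (28.8 ± 5.29 TPM) were expressed.

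Of 19 drivers and suppressors of ovarian cancer, 16 were expressed, Mecom had 0.754 TPM and 2 had 0 counts. The disrupted gene itself, Trp53, had 19.6 to 30.1 TPM (median 28.1) in the 6 libraries. Edits that break the reading frame can leave RNA, and with no library of the parental line these values do not check the genotype. The p53 target Cdkn1a (p21) had 58.7 ± 17 TPM. The oncogene Myc had 142 to 376 TPM (median 285) and was lowest in replicate 1. The SWI/SNF ATPases Smarca4 (138 ± 18.8 TPM) and Smarca2 (113 ± 17.7 TPM), the proteins that AU15330 degrades in the rest of the series, had overlapping ranges, with Smarca4 the higher in each of the 6 libraries. That order rests on the exon lengths used, 6475 bases for Smarca4 and 14269 for Smarca2. By reads alone Smarca2 was the higher, with a mean of 414 CPM against 230 CPM. Arid1a, a further subunit of the SWI/SNF complex, had 68.6 ± 16.8 TPM. The lowest of the expressed drivers were Brca1 (3.03 ± 0.280 TPM), Ccne1 (2.76 ± 1.02 TPM) and Palb2 (1.62 ± 0.278 TPM).

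The genes at 0 counts were the cell cycle inhibitors Cdkn2a and Cdkn2b, neighbours on chromosome 4. Mtap, the gene next to them, had 386 to 513 TPM (median 450). Beyond it, the noncoding genes Gm12602 and Wincr1 had 17.4 ± 2.84 and 14.9 ± 1.66 TPM. On the other side Gm12610 had 1.43 ± 1.04 TPM (28 counts in all), and Dmrta1 had 0 counts. Whether the genes are deleted or silent cannot be read from RNA.

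Hox genes, which record position along the body axis, were expressed from 3 of the 4 clusters. Of 39, 11 (28.2%) were expressed and 12 had 0 counts. In the Hoxd cluster Hoxd9 had 98.3 to 123 TPM (median 115), Hoxd8 67.6 ± 4.13 TPM, Hoxd4 34.4 ± 6.99 TPM and Hoxd3 32.4 ± 7.29 TPM. Hoxd10 had 0.835 TPM and Hoxd11 1 count, and Hoxd1, Hoxd12 and Hoxd13 had 0 counts. Hoxc13 (22.5 ± 5.61 TPM) and Hoxc6 (21.5 ± 4.56 TPM) led the Hoxc cluster, and Hoxa6 (4.17 ± 1.56 TPM) the Hoxa cluster. None of the 10 Hoxb genes passed 0.0715 TPM, and 7 had 0 counts.

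Long noncoding and imprinted genes covered a wide range. Malat1, a nuclear RNA, had 893 to 2340 TPM (median 1430), and Neat1, the scaffold of paraspeckles, 123 to 423 TPM (median 204). The other high genes annotated as noncoding were 2410006H16Rik (969 ± 156 TPM), C430049B03Rik (510 ± 191 TPM), 4930461G14Rik (401 ± 72.9 TPM), Gas5 (314 ± 48.2 TPM), 4930447F24Rik (231 ± 128 TPM), 1810058I24Rik (183 ± 45.0 TPM) and Epb41l4aos (137 ± 37.8 TPM). Cct6a, in the same class by its annotation only, is a protein-coding chaperonin gene in common use and had 262 ± 27.4 TPM. Among imprinted genes Peg3 had 103 ± 37.8 TPM and H19 26.1 ± 12 TPM. The growth factor Igf2, the neighbour of H19, had 5 counts in all, and Meg3 and Cdkn1c had 0.

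**Figure D3:**
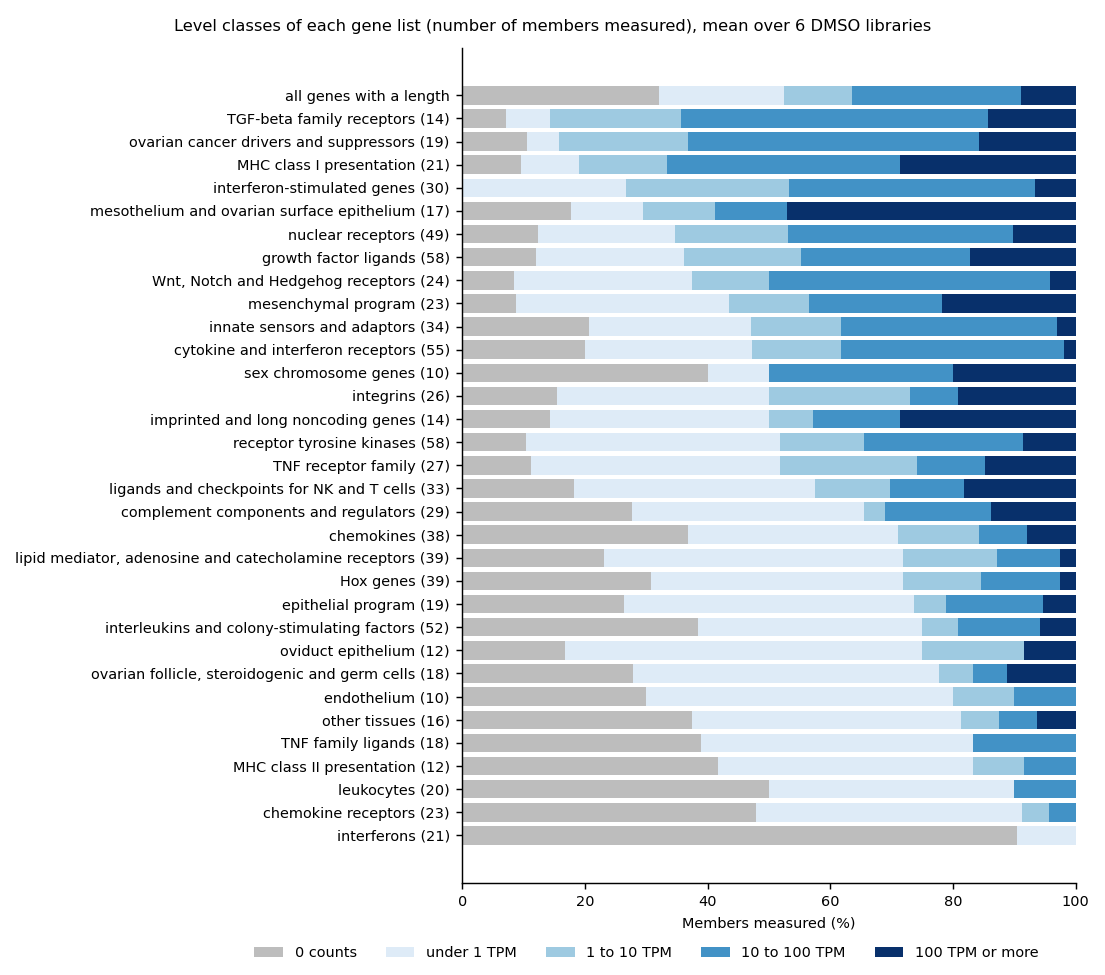
Share of the measured members of each of 32 gene lists in 5 classes of mean level over the 6 DMSO libraries, as percent of the members whose number follows the list name. The top bar gives the same classes for all 24681 genes with a length. TGF-beta family receptors are expressed in 85.7% of members, chemokine receptors in 8.70% and interferons in none.

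The share of expressed receptors differed between families. Over 9 receptor lists, 155 of 315 genes were expressed and 53 had 0 counts. The TGF-beta family was the fullest, with 12 of 14 receptors (85.7%), and the chemokine receptors the emptiest, with 2 of 23 (8.70%). Nuclear receptors (32 of 49) and the Wnt, Notch and Hedgehog receptors (15 of 24) came after the TGF-beta family. Cytokine receptors (29 of 55), integrins (13 of 26), receptor tyrosine kinases (28 of 58) and the TNF receptor family (13 of 27) lay close to the 47.5% of all genes.

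Among receptor tyrosine kinases, Axl, which binds the vitamin K-dependent protein GAS6, had the highest level. It ran from 755 to 1010 TPM (median 896). The collagen receptor Ddr1 had 395 ± 54.2 TPM, the kinase-dead ephrin receptor Ephb6 151 ± 18.7 TPM and Epha2 135 ± 24 TPM. The ranges of Axl and Ddr1 overlapped neither each other nor those of the lower pair. Erbb2 had 70.5 ± 8.19 TPM, the scatter factor receptor Met 42.9 to 70.3 TPM (median 55.1), the lymphatic receptor Flt4 54.9 ± 12.8 TPM, Igf1r 46.7 ± 11.5 TPM, Mst1r 42.8 ± 8.33 TPM and Egfr 35.2 ± 11.5 TPM. Of the other families, Fgfr1 had 25.9 ± 4.07 TPM, Insr 17.8 ± 5.27 TPM and Flt1 17.1 ± 4.02 TPM. Alk, Ros1, Ret, Ror2 and Epha5 had 0 counts, and Kdr, Pdgfrb, Flt3, Erbb4 and Ntrk2 had 1 count each.

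The TGF-beta family was led by the receptor of anti-Müllerian hormone. Amhr2, a gonadal type II receptor, had 253 and 280 TPM in replicates 3 and 2 and 710 to 766 TPM in the other 4. No value fell between these. Tgfbr2 had 144 ± 18 TPM, Bmpr1a 81.2 ± 13 TPM, Tgfbr1 70.4 ± 15.6 TPM and Acvr1 58.4 ± 7.02 TPM. The co-receptor betaglycan (Tgfbr3) had 0 counts.

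Of nuclear receptors, the oxysterol receptor Nr1h2 (195 ± 35.2 TPM), the retinoic acid receptors Rara (158 ± 9.11 TPM) and Rarg (108 ± 12.8 TPM) and the thyroid hormone receptor Thra (141 ± 7 TPM) were highest. Receptors of ovarian steroids were low or absent. The estrogen receptor Esr1 had 3.36 to 5.62 TPM (median 4.21). The progesterone receptor Pgr had 0 counts and Esr2 1 count. The glucocorticoid receptor Nr3c1 had 47.8 ± 11.9 TPM and the vitamin D receptor Vdr 51.9 ± 16.5 TPM. Nr0b1, Nr5a2, Nr1h5, Hnf4g and Rxrg also had 0 counts.

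Cytokine receptors are built from several chains, so they were read as complexes, an arrangement made after the levels were seen. Of 22 cytokine receptor complexes, 11 had every chain expressed and 11 had some but not all. The 3 complexes of the TGF-beta family that were read in the same way had every chain. Both chains were present for interferons of type I (Ifnar1 69.1 ± 9.84 and Ifnar2 73.5 ± 5.82 TPM), type II (Ifngr1 52.3 ± 6.53 and Ifngr2 78.1 ± 3.47 TPM) and type III (Ifnlr1 28.1 ± 5.19 and Il10rb 54.9 ± 4.83 TPM). For interleukin-22, Il22ra1 had 65.2 to 122 TPM (median 97.6). The type II interleukin-4 receptor was complete with Il13ra1 (107 ± 13.8 TPM) and Il4ra (46.6 ± 8.09 TPM). The shared chain Il6st (gp130) had 67.7 ± 19.2 TPM and was joined by Lifr (69.8 ± 14.7 TPM), Osmr (33.5 ± 9.38 TPM), Il11ra1 (14.3 ± 2.86 TPM) and Il6ra (8.40 ± 1.54 TPM). Interleukin-1 and interleukin-17A receptors were complete as well, the first through an Il1rap of 2.07 ± 0.484 TPM.

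The incomplete complexes lacked different chains. Csf2ra, the ligand-binding chain for GM-CSF, had 77.7 ± 10.7 TPM and Il3ra 42.4 ± 3.83 TPM. Csf2rb, the only signalling chain read here for either receptor, had 0 counts. The TSLP chain Crlf2 had 70.4 ± 9.07 TPM and its partner Il7r 0.325 TPM. Il10rb was present without Il10ra, which had 0 counts. The interleukin-2 receptor kept only Il2rg, at 2.40 ± 0.688 TPM.

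TNF receptors of the broadly expressed kind were high. Tnfrsf1a ran from 223 to 267 TPM (median 246), Ltbr from 186 to 200 TPM (median 199), Tnfrsf12a from 175 to 207 TPM and Tnfrsf1b from 133 to 157 TPM. Spread between libraries was small for these 4. The decoy receptors Tnfrsf23 (52.7 ± 30.6 TPM) and Tnfrsf22 (20.4 ± 11.1 TPM) were less even, with Tnfrsf23 at 87.5 and 96.4 TPM in replicates 2 and 3 and 31.2 to 35.7 TPM elsewhere. The death receptors Fas and Tnfrsf10b had 0.391 and 4.53 TPM, and Cd40 had 1 count.

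Of chemokine receptors, the lymph node homing receptor Ccr7 had 8.09 to 15.2 TPM (median 10.6) and the scavenger Ackr3 0.154 to 2.75 TPM (median 1.76). Cxcr4 had 5 counts in all, and 11 of the 23, among them Cxcr3 and Cx3cr1, had 0. Ackr3 crossed the threshold in some libraries only.

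Receptors for lipid mediators and proteases were led by the thrombin receptor F2r, at 506 to 656 TPM (median 616). Lpar2 (43.3 ± 5.38 TPM), Adra1b (31.6 ± 2.88 TPM) and F2rl1 (19.7 ± 6.57 TPM) came next, and 28 of the 39 were not expressed, including Lpar1 with 1 count and S1pr1, S1pr3, Ednra, Ednrb and Ptger3 with 0. Among prostaglandin E2 receptors only Ptger4 (3.49 ± 0.509 TPM) passed the threshold. Wnt receptors included Lgr4 (238 ± 49.5 TPM), Fzd7 (95.8 ± 18.2 TPM) and Fzd5 (63.7 ± 12.5 TPM), and the Hedgehog transducer Smo had 92.7 ± 18.3 TPM. Notch2 had 34.7 ± 8.23 TPM, whereas Notch1 had 7 counts in all. The integrins Itgb1 (720 ± 75.1 TPM), Itga3 (453 ± 43.7 TPM), Itga6 (389 ± 76.8 TPM) and Itgb5 (372 ± 27.8 TPM) stood above the rest, and Itga1, Itga4, Itga8 and Itgad had 0 counts. Itga3 and Itga6 pair with Itgb1 as laminin receptors.

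A smaller share of secreted signals was expressed than of receptors (155 of 315) or of all genes (47.5%). Of 187 genes in 5 ligand lists, 64 were expressed and 67 had 0 counts. Growth factors (37 of 58, 63.8%) accounted for more than 50% of the expressed ones, and interferons (0 of 21) for none.

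Vegfa, the main angiogenic factor, had 706 to 1211 TPM (median 946) and was lowest in replicate 1. The matricellular factors Ccn1 (519 ± 162 TPM) and Ccn2 (298 ± 119 TPM), the morphogen Bmp4 (305 ± 56.6 TPM) and Tgfb3 (284 ± 48.0 TPM) followed. The metabolic hormone Fgf21 had 26.7 TPM in replicate 1 and 201 to 467 TPM in the other 5. Replicate 1 also had the lowest level of the endoplasmic reticulum chaperone Hspa5, 622 TPM against 1914 to 3264 TPM. Of the EGFR ligands, Btc (112 ± 18.6 TPM), Tgfa (76.2 ± 15.7 TPM), Areg (24.7 ± 7.17 TPM), Ereg (16.6 ± 5.43 TPM) and Hbegf (9.87 ± 1.15 TPM) were expressed, while Egf itself had 0.355 TPM. Hgf, Bmp2, Bmp3, Angpt1, Fgf5, Fgf10 and Ptn had 0 counts.

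Chemokines were represented by 11 of 38 (28.9%), against 47.5% of all genes. Cxcl17 had 292 to 402 TPM (median 308) and Cxcl12, the ligand of CXCR4, 222 to 309 TPM (median 253). Their ranges overlapped. The membrane-bound Cxcl16 had 112 ± 21.7 TPM, though 18% of its exon bases are shared with another gene, Cxcl15 48.2 ± 11 TPM and Cx3cl1 26.6 ± 4.46 TPM. Of inflammatory chemokines, Ccl5 had 5.78 ± 1.36 TPM, Ccl2 1.18 ± 0.538 TPM, Cxcl10 0.900 TPM and Cxcl1 0.597 TPM, and Cxcl9, Cxcl5, Ccl3, Ccl4 and Ccl22 had 0 counts.

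Of 52 interleukins and colony-stimulating factors, 13 (25%) were expressed and 20 had 0 counts, against 47.5% and 32.0% of all genes. Mif, a cytokine with many processed pseudogenes, had 1601 ± 668 TPM, and ran from 933 to 1088 TPM in replicates 4 to 6 and from 2046 to 2379 TPM in replicates 1 to 3. Kitl (stem cell factor) had 174 ± 31.3 TPM, Csf1, the macrophage growth factor, 137 to 190 TPM (median 161), and the interleukin-1 receptor antagonist Il1rn 79.3 to 123 TPM (median 91.9). The agonists that Il1rn opposes were lacking, with Il1b at 0 counts and Il1a at 1. Il15, which sustains NK cells, had 23.5 ± 5.86 TPM and Lif 20.9 ± 3.41 TPM. Il6, a main component of the senescence-associated secretory phenotype, had 0 counts, as had Osm, Il7, Il4 and Il13. Il18 (1.08 ± 0.809 TPM) and Il33 (0.993 ± 0.279 TPM) fell on opposite sides of the threshold without being separable. No interferon was expressed: Ifne had 10 counts in all, Ifna16 had 1, and the other 19, Ifnb1 and Ifng included, had 0. Of TNF ligands, Tnfsf13 (73.0 ± 6.03 TPM), Tnfsf12 (28.6 ± 3.63 TPM) and Tnfsf9 (22.6 ± 4.53 TPM) were expressed, but the first and second share 60% and 48% of their exon bases with other annotated genes, so their reads cannot be assigned with certainty. Tnf had 4 counts.

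Ligands and receptors were then set side by side for 73 known pairs, chosen after their levels had been seen. In 22 pairs both partners were expressed, in 23 only the ligand, in 25 only the receptor and in 3 neither. Pairs with both partners included Btc and Tgfa with Egfr, Vegfc with Flt4, Bmp4 with Bmpr1a, Tgfb3 with Tgfbr2, Lif with Lifr and Tnfsf12 with Tnfrsf12a. Among the pairs with a ligand only, the receptor was at or near 0 counts in several: Csf1 and Il34 stood against 8 counts of Csf1r, Vegfa against 1 count of Kdr, Pdgfb against 1 count of Pdgfrb, Cxcl12 against 5 counts of Cxcr4, Cxcl16 against 1 count of Cxcr6 and Cx3cl1 against 0 of Cx3cr1. Vegfa and Cxcl12 each had another receptor above the threshold, Flt1 (17.1 ± 4.02 TPM) and Ackr3 (1.44 ± 1.02 TPM). Among the pairs with a receptor only, Axl stood against 0.185 TPM of Gas6, Met against 0 counts of Hgf, Amhr2 against 0.922 TPM of Amh, and Tnfrsf1a against 0.0754 TPM of Tnf. These are levels of RNA in cultured cells, and serum in the medium can supply ligands that the cells do not make.

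**Figure D4:**
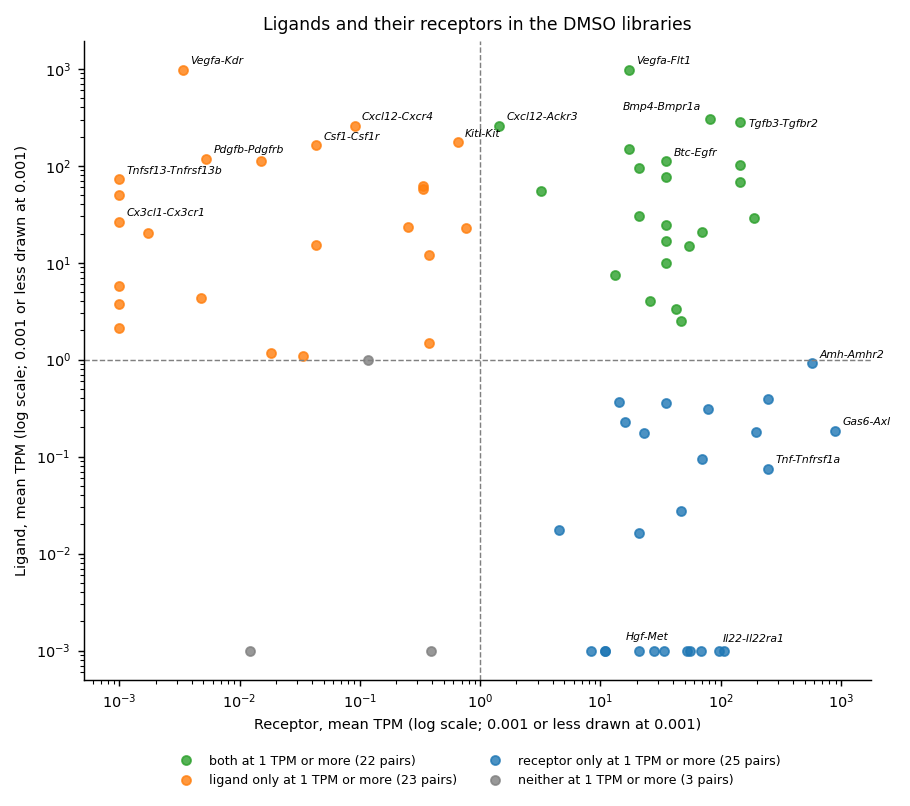
Mean level over the 6 DMSO libraries of the ligand (vertical) and the receptor (horizontal) for 73 pairs, in TPM on log scales with dashed lines at 1 TPM and levels of 0 drawn at the edge. The 23 pairs at upper left have an expressed ligand only, such as Csf1 and Csf1r, and the 25 at lower right an expressed receptor only, such as Axl and its ligand Gas6.

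Of 34 innate sensors and adaptors, 18 (52.9%) were expressed, close to the 47.5% of all genes. The adaptor of RNA sensing, Mavs, had 198 to 272 TPM (median 223), and its sensors Ddx58 (RIG-I) and Ifih1 (MDA5) had 22.3 ± 3.68 and 15.5 ± 2.75 TPM. Of the DNA-sensing arm, Cgas had 2.86 to 4.62 TPM (median 4.33), Sting1 43.7 ± 5.06 TPM, Tbk1 44.8 ± 4.92 TPM and Irf3 68.3 ± 7.06 TPM. The sensor was thus the lowest member of that arm, and its range did not overlap that of the others. Nod1, a sensor of bacterial peptidoglycan, had 82.5 ± 16.9 TPM, Ticam1 57.4 ± 7.60 TPM, Tlr4 39.8 ± 9.23 TPM and Tlr7 12 ± 2.67 TPM. Pycard, the adaptor of inflammasomes, had 0 counts, as had Tlr8, Tlr9, Tlr11, Tlr12, Nlrp1a and Nlrp1b.

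Of 30 interferon-stimulated genes, 22 (73.3%) were expressed and none was at 0 counts, against 47.5% and 32.0% of all genes. No interferon gene reached a mean of 1 TPM, though Ifne had 1.56 TPM in replicate 4. Ifitm2, a restriction factor of virus entry, had 409 to 749 TPM (median 659) and was lowest in replicate 5. Ifitm3 (120 ± 15.9 TPM), Irf1 (78.0 ± 9.07 TPM) and Ifi35 (51.1 ± 5.97 TPM) came next. Stat2, which carries the interferon signal, had 26.1 ± 4.95 TPM. Lower members were Oasl1 at 21.3 ± 2.22 TPM, Oasl2 at 19 ± 4.03 TPM, Isg15 at 12.3 ± 4.06 TPM, Mx1 at 3.48 ± 1.66 TPM, Ifit1 at 1.28 ± 0.784 TPM, Rsad2 at 1.18 ± 0.770 TPM and Oas2 at 0.249 TPM. Reads of Ifit and Oas genes can be split between near-identical copies.

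Most genes of antigen presentation by class I were expressed and most of class II were not. Of 21 class I genes, 17 (81.0%) were expressed, against 47.5% of all genes. Calr, Pdia3 and Canx in that list also belong to the chaperones and isomerases of the endoplasmic reticulum. B2m, the invariant chain, had 818 to 1211 TPM (median 1024), the chaperones Calr 1163 ± 288 TPM, Pdia3 878 ± 85.7 TPM and Canx 721 ± 130 TPM, and the peptide-loading protein Tapbp 495 ± 72.5 TPM. The ranges of the heavy chains lay below that of B2m: H2-K1 had 75.8 to 126 TPM (median 94.3), H2-D1 71.4 to 99.5 TPM (median 88.6) and the nonclassical H2-T23 120 ± 15.4 TPM. Heavy chain genes are alike in sequence, and their reads may have been divided or dropped in counting. The transporter subunits differed, with Tap2 at 65.0 ± 8.26 TPM and Tap1 at 11.9 ± 1.67 TPM. The immunoproteasome subunits Psmb8 (1.07 ± 0.354 TPM) and Psmb9 (2.27 ± 0.513 TPM) and the class I transactivator Nlrc5 (3 counts) were near or below the threshold, whereas Psmb10 had 70.7 ± 14.9 TPM. Of 12 class II genes, 2 were expressed, H2-DMa (1.86 ± 0.494 TPM) and Cd74, and H2-Aa, H2-Ab1, H2-Eb1, H2-Eb2 and H2-Ob had 0 counts. Cd74 had 0.833 to 1.95 TPM in replicates 1 to 3 and 21.7 to 28.8 TPM in replicates 4 to 6, while the transactivator Ciita had 5 counts in all.

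Of the ligands and checkpoints read by NK and T cells, 14 of 33 (42.4%) were expressed, close to the 47.5% of all genes. Besides Lgals1, the prostaglandin synthase Ptgs2 (COX-2) had 215 to 929 TPM (median 720) and was lowest in replicate 1, and Lgals3 had 357 ± 118 TPM. Nectin2, a ligand of the receptors DNAM-1 and TIGIT, had 285 to 395 TPM (median 364), and Pvr, the other such ligand, 38.3 ± 6.70 TPM. The signal against phagocytosis, Cd47, had 118 ± 16.7 TPM and Cd276 (B7-H3) 80.0 ± 13 TPM. PD-L1 (Cd274) had 1.57 to 4.38 TPM (median 2.58), and Cd80, Cd86, Cd200, Ido1, Nectin3 and H60c had 0 counts. Of the ligands of the activating receptor NKG2D, Raet1e had 4.17 ± 0.792 TPM, Ulbp1 0.360 TPM, Raet1d 0.103 TPM and H60b 1 count. Raet1a, Raet1b and Raet1c could not be given a length, and the family is one of near-identical copies.

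Of complement genes, besides Clu, the membrane regulator Cd55 (136 to 302 TPM, median 217), the central component C3 (128 ± 37.0 TPM) and the protease C1s1 (106 ± 24.3 TPM) were highest among 10 of 29 expressed. Of the first component, the proteases C1s1 and C1ra (59.9 ± 6.05 TPM) were made, but its recognition chains C1qb and C1qc had 0 counts and C1qa 1. The regulator Cr1l had a mean of 15.6 TPM, whereas Cd46 had 0.467 TPM and Cd59a 2 counts. Properdin (Cfp) had 10.2 ± 3.60 TPM. Cfb, Cfd, C7, C8a, C5ar1 and Vtn had 0 counts.

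Most levels were reproducible between libraries. Among 8926 genes of at least 500 exon bases and 10 TPM, the coefficient of variation (CV) had a median of 15.6%, with quartiles of 10.9% and 21.5%, and exceeded 50% in 67 genes (0.751%). The most even genes at 100 TPM or more were Smap1 (CV 1.98%), Kdm1a (2.25%) and Vamp3 (2.27%). Over genes of any length, the 10 largest CVs belonged to Mir6236, Rmrp, Mir186, Mir684-1, Lars2, Try5, Cd74, Mir682, Mir7079 and Rpph1, of which 5 are under 200 bases long. Lars2, a mitochondrial tRNA synthetase gene, had 224 TPM in replicate 1 and 30.2 to 47.9 TPM in the others, and the RNA components Rmrp and Rpph1 were likewise highest there, at 69.7 and 132 TPM. The Rn45s share was highest in the same library, and its part in these values was not tested.

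With genes under 500 exon bases left out, a choice made after the first ranking was seen, the 10 most variable genes were Lars2, already described, and 9 whose levels differed between replicates 1 to 3 and replicates 4 to 6. The trypsin gene Try5 had 2.44 to 5.94 TPM in replicates 1 to 3 and 115 to 145 TPM in replicates 4 to 6. Gsta2, a detoxifying transferase, went from 6.62 to 11.5 TPM in the first set and from 60.2 to 90.0 TPM in the other, and the collagenase Mmp13 from 9.05 to 29.5 TPM and from 96.8 to 112 TPM. Cox6a2, Sh2d6, Krt15 and Cd74 were also higher in each of replicates 4 to 6 than in any of replicates 1 to 3. Cda and Tubb4a were lower there, Cda with 5.52 to 6.41 TPM against 20.9 to 37.4 TPM. A mean over all 6 libraries therefore stands between separate values for these genes, and the labels give no date or batch for the libraries.

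**Figure D5:**
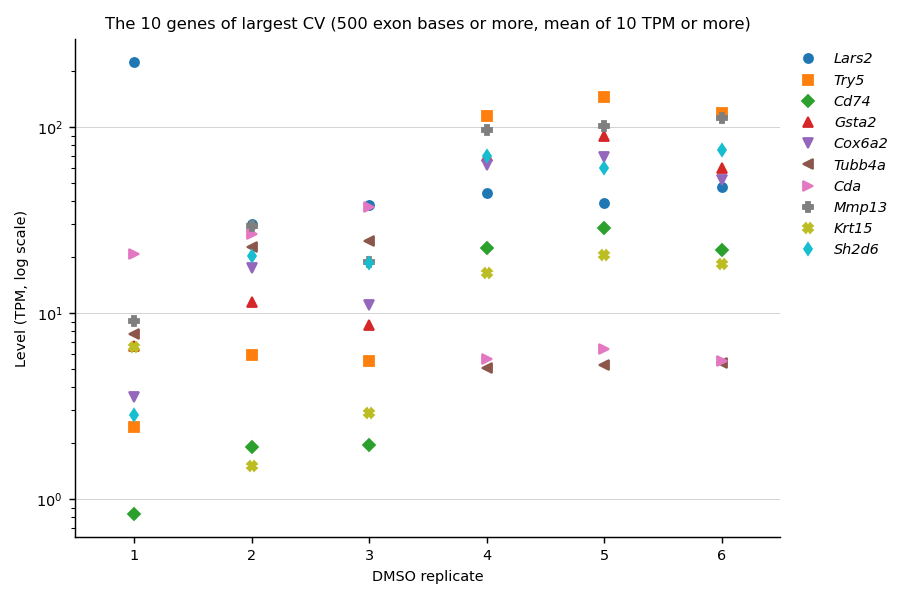
Level in TPM on a log scale of the 10 genes with the largest CV among those of at least 500 exon bases and a mean of at least 10 TPM, by DMSO replicate. Lars2 is high in replicate 1 alone, while Try5, Cd74, Gsta2 and Mmp13 are higher in replicates 4 to 6 than in replicates 1 to 3.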

How the data were processed

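RNA of ID8 P53 KO cells was poly(A)-selected, made into strand-specific libraries and sequenced by the authors as single-end reads of 70 bases. The submitters' processing notes name STAR 2.7.1a, DESeq2 1.36.0 and the build mm10. The counting tool, the annotation and the use of strand are not given in the sources used here. The authors deposited unnormalized counts of reads for 25229 symbols, with 2 sequencing lanes for each library. Lanes were summed for the 6 DMSO libraries (17592588 to 23096222 counts), after the paired lanes had been compared (chi-square divided by its degrees of freedom, 1.37 to 1.41).

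GENCODE vM21 (GRCm38, the same build) gave the exon length of 24681 symbols, 315 of them through a RefSeq synonym. The 548 others held 0.605% of counts, mostly Rn45s. TPM was computed from counts and length, and a mean of 1 TPM set expression. The table has no mitochondrial genes. Spread was measured with edgeR 4.0.16 (TMM, group mean only) in R 4.3.3, and the steps were tested on simulated data. Short transcripts, near-identical copies and overlapping genes give uncertain levels.

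Genes named are the 25 highest, the 4 highest and the members at 0 counts of each list, the 10 of largest CV, the 10 highest of long noncoding type and those nearest 1 TPM on both sides (Gdf9, Relt, Il33 and Mx2). Others are named for their role, after their values were seen. The members and the 32 gene lists, with 864 genes measured, were chosen with earlier results of these data known, and the ligand-receptor pairs, receptor chains and functional groups after the levels were seen. Muc16 and H60a are not analysed here. Some named genes and list members at 0 counts are not reported here. No test between groups was made, since no group was compared with another.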

Additional observations from a re-analysis of the deposited data

Results flagged for a closer look

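In 6 libraries, a value was set apart where its gap to the nearest other, divided by the whole range, exceeded Dixon's 95% critical value, which chance does in about 1 of 20 groups. This held for 12 of 151 named genes, 11 of them in replicate 1, but 5 of the 12 had been named for their large CV, so the number cannot be set against chance. The same replicate had the high Rn45s share of 1.70% of counts. Replicate 1 was the highest for Mir6236 (36003 TPM), Lgals1 (4985 TPM), S100a4 (530 TPM), Cxcl17 (402 TPM), Lars2 (224 TPM), Rpph1 (132 TPM), Rmrp (69.7 TPM) and Mir684-1 (51.1 TPM). It was the lowest for Eef2 (3569 TPM), Canx (469 TPM) and Epha2 (88.5 TPM). Replicate 5 was the lowest for Ifitm2 (409 TPM). The cause was not tested.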

How the results depend on the processing

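No paired analysis was possible because no group was compared with another. The number of expressed genes stayed within 1.5 times of 11724 under each setting tried, from 11100 (threshold in every library) to 12355 (0.5 TPM). It was 11106 at 2 TPM, 11408 at 1 CPM, 11626 with the longest transcript as length and 11695 to 11734 without 1 replicate. The number of detected genes, 17018 with the symbols that have no length included, fell to 12935 when every library had to have a count and was 16560 to 16819 without 1 replicate. The 100 highest genes took 15.5% of counts but 21.4% of TPM, and 15.1% to 15.8% without 1 replicate. Only 15 of the 25 highest genes by TPM were among the 25 highest by CPM, which favours long genes, and 22 with the longest transcript. The list genes expressed, 383, became 430 at 0.5 TPM and 352 at 2 TPM. With 0.5 TPM, 20 interleukins and colony-stimulating factors were expressed in place of 13, 7 gonadal genes in place of 4 and 5 genes of other tissues in place of 3. At 2 TPM, 1 chemokine receptor and 1 class II gene were left in place of 2 each. The longest transcript as length moved 70 of 166 named levels by more than the SD between libraries. Leaving out 1 of 6 values cannot move a mean by that SD, so it was not read as stability, and without replicate 1 the level of Mir6236 was 4592 in place of 9827 TPM. Settings added after the data were seen, genes of at least 200 exon bases (11511 expressed, 24 of the 25 highest kept), no Rn45s (15.1%) and genes with 1 listed start (a CG median higher by 20 at 100 TPM or more than at 0 counts, as with all genes), moved none of these results past 1.5 times or the SD. A share without mitochondrial genes gave no value, since the table has none. At this depth 0 counts in all libraries allow up to 0.0236 CPM.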
